A study of Bos taurus with 6 samples.

Results

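Blood DNA methylation was examined at 4 genes of leukocytes and innate immunity, PGRP1_BOVIN, CD5_BOVIN, SERPINB1 and PD2R_BOVIN, in 6 cattle libraries. They were taken by name from the authors' deposited table of differentially methylated regions, which names 263 genes for 334 regions, and each has 1 listed region. The regions were selected on their difference in methylation between the groups in these same libraries, so the values there are a description and were not tested. Each locus was the gene range of that table extended by 20000 bp on both sides, which gave 196344 bp in all (cattle build UMD3.1). A methylation level is the share of methylated read calls among all calls, over cytosines with at least 10 calls in a library.

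All animals were adult males, with 1 library for each. Among the Creole cattle, Creole 1 was of the Sanmartinero breed, and the breed of both Creole 2 and Creole 3 was Costeno con Cuernos. Among the Spanish cattle, which the series takes as the Iberian ancestors of the Creole breeds, Spanish 1 was a Retinta and Spanish 2 an Asturiana de los Valles. Spanish 3 was labelled Lidia breed. The labels give no treatment or genotype. Reduced representation bisulfite sequencing was used, in which DNA is cut at CCGG sites with MspI, fragments of a chosen size are kept and bisulfite turns unmethylated cytosines into bases read as thymine. One DNA extraction kit served for the Creole samples and another for the Spanish ones, and the lane mark coincides with the groups as well. An effect of the kit, one of the lane and a difference between the breeds therefore cannot be told apart.

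White blood cells supply nearly all DNA of mammalian blood, because mature red cells lack a nucleus. A level is therefore an average over neutrophils, lymphocytes and monocytes, and a change inside one cell type cannot be told apart from a change in the mixture. CpG methylation is usually low across CpG islands at active or poised gene starts and high over most other CpGs. PGRP1_BOVIN is a peptidoglycan recognition protein that binds bacterial cell wall and is stored in granules of neutrophils. CD5_BOVIN is a scavenger-receptor family glycoprotein of T cells and some B cells that restrains antigen receptor signalling. SERPINB1 is the leukocyte elastase inhibitor, a clade B serpin that blocks the serine proteases of neutrophil granules. PD2R_BOVIN is a G protein-coupled receptor for prostaglandin D2, a lipid mediator released by mast cells.

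Libraries held 40986296 to 84537374 CpG calls and 370409 to 1604013 chromosomal cytosines with at least 10 calls. Creole 1 stood apart, with the most calls, the most cytosines and the lowest share of cytosines at which every call was alike (68.6%, against 87.2% to 91.7% in the others). The libraries read different parts of the 4 loci. Of 809 cytosines with at least 10 calls in any library, 415 (51.3%) were read in 1 library only and 8 in all 6, and these 8 lay at SERPINB1.

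PGRP1_BOVIN, of the recognition step, was unmethylated in the Creole libraries that read its listed region and fully methylated in the 1 Spanish library that did. The region lies on an exon in the core of a CpG island (chromosome 18, 53947889 to 53947942, in the gene range 53946097 to 53948160). Per the authors' deposited table it has 6 CpGs and means of 4% in Creole and 88% in Spanish animals, a difference of rank 3 by size among the 334 regions. Recomputed from the calls, Creole 1 stood at 1.71% over 175 calls (95% Wilson interval 0.585 to 4.92%), and Creole 2 at 0.0% over 1031 calls (0 to 0.371%). Spanish 1 read 100% (98.3 to 100%, 222 calls). The groups were 99.1 points apart on 2 Creole libraries (0.857% ± 1.21, SD, n = 2) and 1 Spanish library, so no spread among Spanish animals can be given. Creole 3 had 12 calls here, all unmethylated, and Spanish 2 had 6, all methylated, at 1 or 2 calls per cytosine and so below the minimum. Spanish 3 had none. At the minimum depth, Creole 1, Creole 2 and Spanish 1 each read 5 minus-strand cytosines and 53947942, whose strand is not known. None was read on the plus strand at that depth. There Creole 1 alone had calls, 1 per cytosine, methylated at 53947894 and unmethylated at 53947898, 53947913 and 53947935. Whether the strands of this region agree was therefore not tested. Wilson intervals cover counting error only. They treat calls as independent, although calls of one region can share a read and the labels name no molecular identifiers that would mark PCR copies.

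The methylated stretch of PGRP1_BOVIN in Spanish 1 had a sharp edge. At 53947844, 53947875 and 53947878, just outside the region, 0 of 37 calls were methylated in Spanish 1. At all 6 cytosines inside it, from 53947889 on, 37 of 37 were. Creole 1 and Creole 2 read 0 methylated calls at the same 3 outer cytosines. Creole 3 read a neighbouring stretch (53947704 to 53947832) in which 13 of 15 cytosines had every call methylated and the last 2 had none. Further from the region in the gene range, Creole 1 and Spanish 3 read the same 3 cytosines with the same states. At 53947468 and 53947541 every call was methylated (21 of 21 in Creole 1 and 55 of 55 in Spanish 3), and at 53947574 none was.

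CD5_BOVIN, of antigen receptor control, had low methylation in 2 Creole libraries and partial methylation in 1 Spanish library. Its listed region (chromosome 29, 38003019 to 38003086) lies outside the gene range (38005199 to 38026747) and outside any listed CpG island. The authors' deposited table gives 5 CpGs and means of 4% in Creole and 49% in Spanish animals, a difference of rank 286 of 334. Creole 1 stood at 2.04% over 245 calls (Wilson interval 0.875 to 4.69%), and Creole 3 at 0.0% over 705 calls (0 to 0.542%). Spanish 2 read 46.4% (40.3 to 52.6%, 250 calls), which was 45.4 points above the Creole mean of 1.02% ± 1.44 (SD, n = 2). Creole 2, Spanish 1 and Spanish 3 had no calls there.

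The intermediate level of CD5_BOVIN in Spanish 2 came from 3 of the 5 cytosines. At 38003019, 38003041 and 38003086 the same number of calls, 38 of 50, was methylated. At 38003045 and 38003051, between them, 0 and 2 of 50 were. The next cytosine, at 38003115, read 0 methylated calls in Creole 1, Creole 3 and Spanish 2. Without the first and last position the Spanish 2 level was 26.7% (Wilson interval 20.2 to 34.3%, 150 calls), so the size of the listed difference rests on which cytosines are counted. On the opposite strand of all 5 CpGs, among them the 3 with 38 of 50, Spanish 2 had 6 calls each, none methylated, below the minimum.

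SERPINB1, of protease control, was the one gene whose listed region was read in every library, and there the groups overlapped. The region spans an intron-exon boundary (chromosome 23, 50673764 to 50673853, in the gene range 50673599 to 50678845) and lies in no listed CpG island. The authors' deposited table gives 4 CpGs and means of 31% in Creole and 92% in Spanish animals, a difference of rank 177. The levels recomputed here cover more cytosines, 8 in Creole 2 and 7 in each other library, so the sets are not alike. The listed Creole mean lies below the recomputed level of every Creole library, and the reason was not tested. Creole 1 read 74.9%, Creole 2 read 41.5% and Creole 3 read 99.3%. Spanish 1 read 100%, Spanish 2 read 59.5% and Spanish 3 read 81.6%. Creole libraries averaged 71.9% ± 29.0 (SD, n = 3). Spanish libraries averaged 80.4% ± 20.3 (SD, n = 3), a difference smaller than either spread. It changed sign when Creole 2 or Spanish 1 was left out (6.70 and 1.33 points higher in Creole).

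Inside the SERPINB1 region the Spanish libraries differed from one another at the last cytosine alone. At this cytosine, 50673853, 0 of 102 calls were methylated in Spanish 2 and 0 of 46 in Spanish 3, against 256 of 256 in Spanish 1. At the other 6 cytosines every call was methylated in both, 25 of 25 in Spanish 2 and 34 of 34 in Spanish 3. Depth changed at 50673853 as well, with 77 calls in Spanish 2 and 12 in Spanish 3 at the next cytosine (50673880). Without the first and last position of the region, all 3 Spanish libraries read 100% (125 to 1285 calls). Creole 1 then read 76.5%, Creole 2 read 38.2% and Creole 3 read 99.2%, a Creole mean of 71.3% ± 30.8 (SD, n = 3), and the groups no longer overlapped. This comparison was added after the data were seen, and Creole 3 stood within 1 point of the Spanish libraries in it.

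Creole 2 showed a stepped pattern at SERPINB1. Between 50673764 and 50673824 its cytosines had either 0 of 129 calls methylated (2 cytosines) or 59 or 60 of 129 (4 cytosines). At 50673853 all 129 were. Just outside the region, at 50673727, Creole 2 read 59 of 126 and Spanish 2 read 0 of 25, where Spanish 1 read 257 of 257 and Spanish 3 read 34 of 34. Creole 1 read between these extremes at all 7 cytosines, from 82 of 123 calls at 50673814 to 108 of 123 at 50673816. The 2 Costeno con Cuernos animals, Creole 2 and Creole 3, were thus 57.8 points apart in the same region, more than the difference between the group means.

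PD2R_BOVIN, of lipid mediator signalling, was the one gene listed as higher in Creole animals, and the value there depended on the strand read. Its region lies on an exon in a CpG island core (chromosome 10, 45205833 to 45205973, in the gene range 45205473 to 45212956). The authors' deposited table gives 10 CpGs and means of 89% in Creole and 8% in Spanish animals, of rank 13. Over both strands Creole 1 read 37.0% (Wilson interval 32.1 to 42.3%, 343 calls) at 19 cytosines. Whether the listed mean of 89% counts both strands is not known, so the 2 values may not cover the same cytosines. Spanish 1 read 0.0454% (0.00801 to 0.256%, 2205 calls) and Spanish 2 read 0.0% (0 to 2.87%, 130 calls). Creole 2, Creole 3 and Spanish 3 had no calls in the region, so the Creole value is that of 1 animal.

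In Creole 1 the strands of the same CpGs of PD2R_BOVIN disagreed. On the plus strand all 100 calls at 10 cytosines were methylated (Wilson interval 96.3 to 100%), at 10 calls each. On the minus strand 27 of 243 calls at 9 cytosines were (11.1%, 7.75 to 15.7%), and all 27 of these came from 1 cytosine. Of 9 CpGs with both strands inside the region, 8 had 10 of 10 calls methylated on one strand and 0 of 27 on the other. The Spanish libraries read the region on the plus strand alone at this depth. A difference computed on the plus strand was 99.98 points, and one computed from cytosines with at least 20 calls, which in Creole 1 lie on the minus strand, was 11.1 points.

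A strand difference also stood beside the PD2R_BOVIN region in a Spanish library. In Spanish 1, 9 of 19 CpGs on its lower-coordinate side, between 45205683 and 45205828, had every minus-strand call methylated (14 of 14) and no plus-strand call (0 of 19, or 0 of 223 at 45205828). At the other 10 neither strand had a methylated call. Spanish 2 read 0 methylated calls at these positions on the plus strand. The disagreement of strands at this gene was therefore not limited to the Creole animal or to the listed region.

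**Figure D1:**
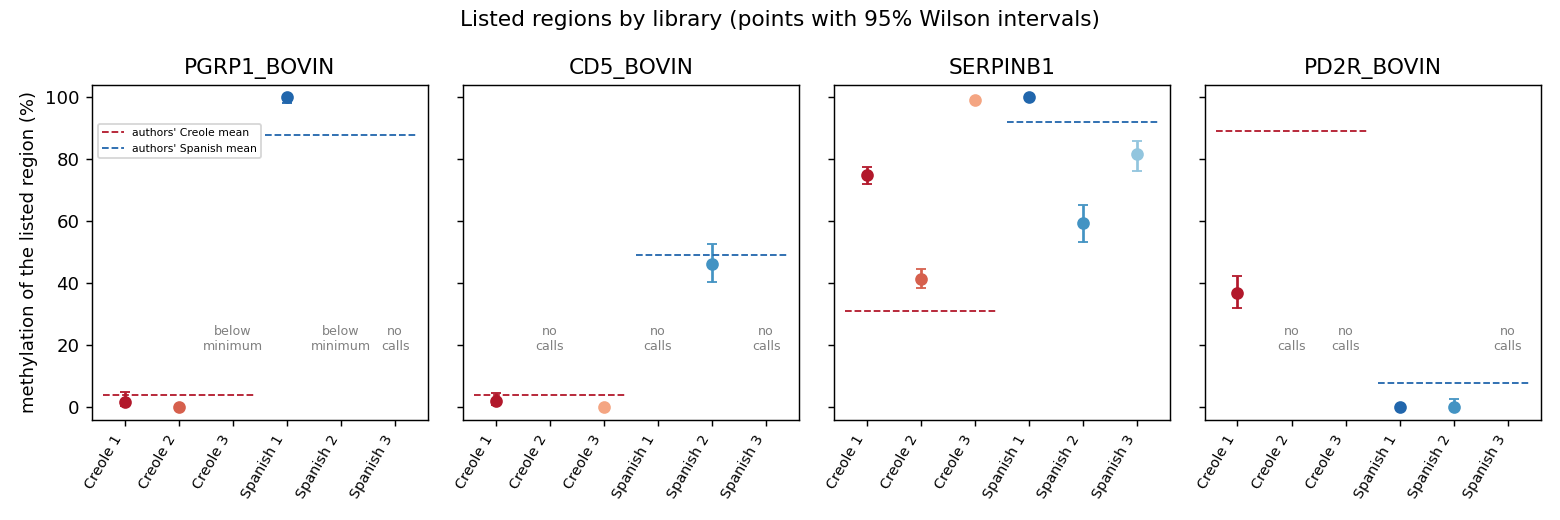
Methylation (percent, vertical axis) of the listed region of each gene by library. Points are recomputed levels with 95% Wilson intervals, dashed lines are the group means of the authors' deposited table, and grey words mark libraries without enough calls. Points and dashed lines need not rest on the same cytosines. PGRP1_BOVIN and CD5_BOVIN rest on 1 Spanish library and PD2R_BOVIN on 1 Creole library, and at SERPINB1 the Creole libraries (41.5% to 99.3%) and the Spanish libraries (59.5% to 100%) overlap.

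**Figure D2:**
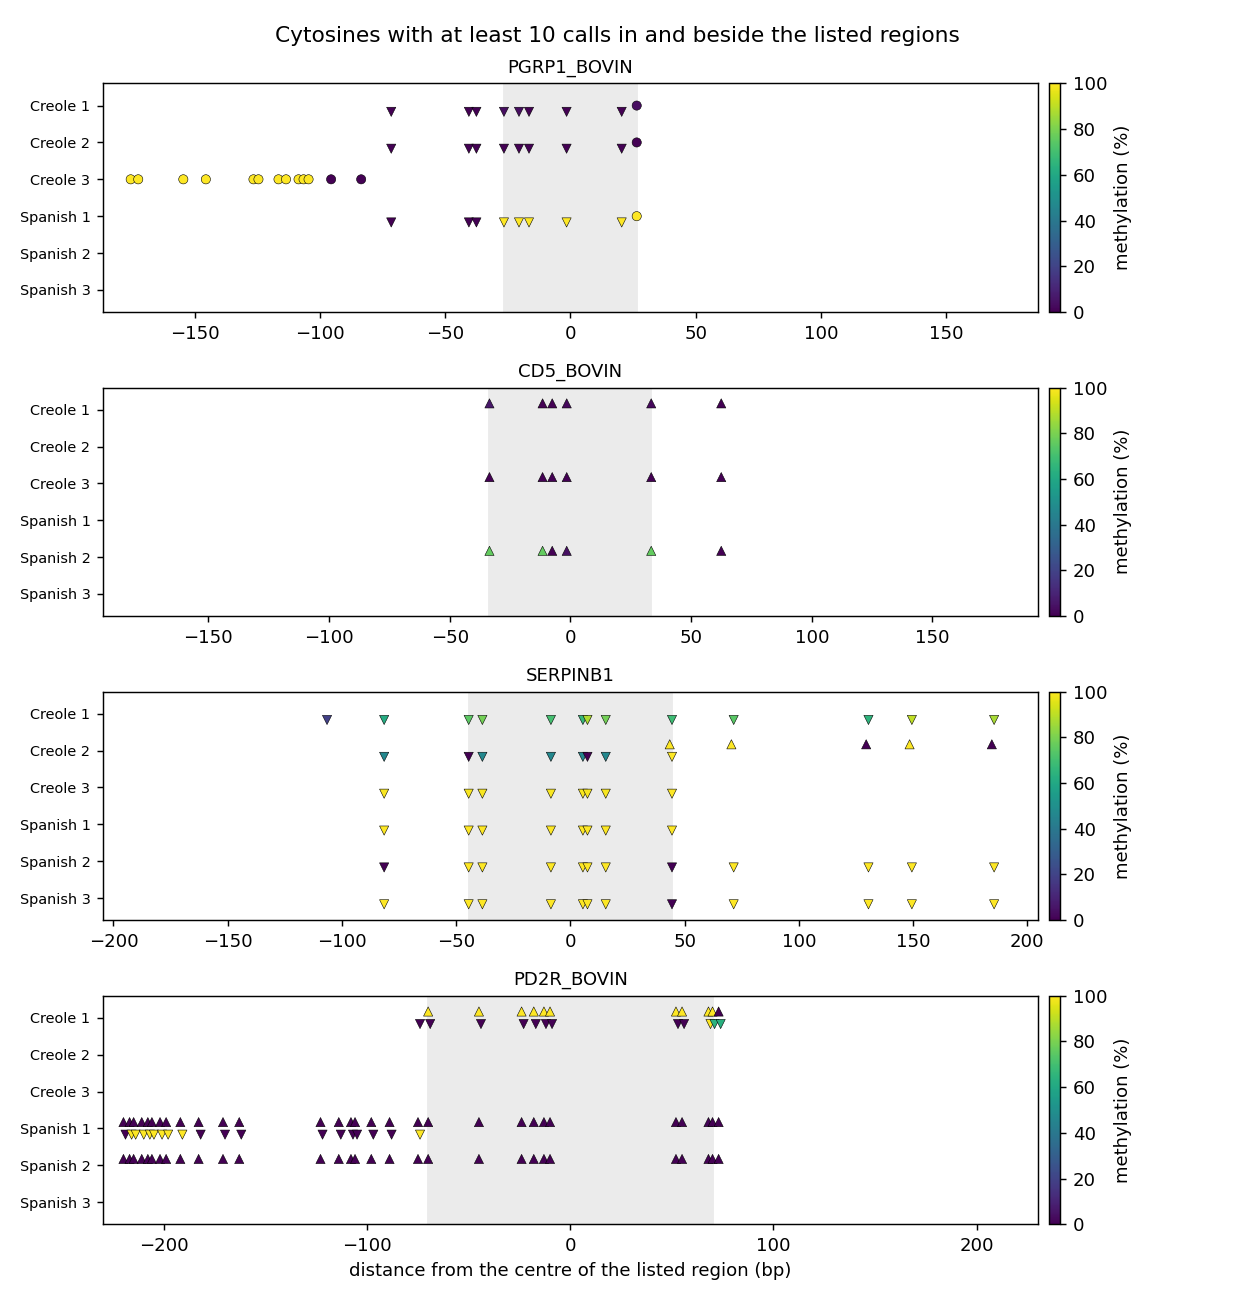
Level of every cytosine with at least 10 calls (colour, percent) against its distance in bp from the centre of the listed region, which is shaded, with 1 row per library. Triangles pointing up are the plus strand, those pointing down the minus strand, and circles cytosines whose strand is not known. Spanish 1 changes from 0 to 100% at the edge of the PGRP1_BOVIN region, and the strands of Creole 1 differ across the PD2R_BOVIN region.

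Away from the listed regions, the loci were compared in 1000 bp bins. The 4 loci had 72 bins with a cytosine of at least 10 calls, of which 28 were read in 1 library and 1 in all 6. Outside the bins holding listed cytosines, 38 of 68 bins were read in both groups and 9 in at least 2 libraries of each. In 1 of these 9 the groups did not overlap, against 21.6% of 47557 such bins on all chromosomes (9.81% higher in Creole and 11.8% higher in Spanish), so the loci held no more of them than other bins. That bin lay in the PGRP1_BOVIN locus (53929001 to 53930000). Creole 1 read 0.403% there and Creole 3 read 50%, against 0.319% in Spanish 2 and 0.0% in Spanish 3. The gap between Creole 1 and Spanish 2 was under 1 point, and Creole 3 read 2 cytosines that neither Spanish library read at this depth. At these Creole 3 had 47 of 47 and 0 of 47 calls methylated, and Creole 1 had 1 of 10 and 0 of 12.

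The lower-coordinate flank of PGRP1_BOVIN varied within both groups. In the RefSeq gene list (ARS-UCD2.0, used for names only) a neighbour of this gene is CCDC61, which encodes a coiled-coil protein. Between 53941001 and 53942000 Creole 1 read 8.27% and Creole 2 read 91.5%, and Spanish 1 read 9.57% and Spanish 2 read 32.1%. Creole 2 was the high library. It shared no cytosine with Creole 1 or Spanish 1 there, and of the 12 it shared with Spanish 2, Creole 2 had every call methylated at 10 and Spanish 2 at 1. At a cytosine that 3 libraries shared, 53941240, 5 of 24 calls were methylated in Creole 1, 25 of 86 in Spanish 1 and 20 of 32 in Spanish 2. At another, 53941315, the counts were 4 of 26, 0 of 86 and 19 of 32. Spanish 1 had no methylated call at 6 of its 9 cytosines in the bin, so its order against Creole 1 changed with the cytosine. From 53942001 to 53943000 Creole 1 read 66.4% and Spanish 2 read 90% over the same 10 cytosines, while Spanish 1 read 20.2% on the opposite strand of the same CpGs. Spanish 1 shared no cytosine with the others there, so strand and animal cannot be told apart in its value. Over all cytosines outside the listed region, each weighted equally, mean levels at PGRP1_BOVIN were 54.5%, 85.3% and 82.4% in Creole 1 to 3. In Spanish 1 to 3 they were 13.2%, 55.8% and 23.7%. The groups overlapped through Creole 1 and Spanish 2, and the libraries averaged different cytosines, 17 to 155 each.

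The next bin of that PGRP1_BOVIN flank, 53943001 to 53944000, was read on different strands. Spanish 3 read 0 methylated calls at all 13 of its cytosines (65 or 66 calls each). Spanish 2, on the other strand, had 0 methylated calls at 8 cytosines, 46 at 3 and 74 at 2, out of 118 or 119 calls each. Creole 1 read both strands, and its cytosines took many levels: 8 of 26 had no methylated call, 6 had every call methylated and 12 lay between. At 53943263 it read 28 of 28 where Spanish 3 read 0 of 66, and at the partner 53943264 it read 0 of 23 and Spanish 2 read 0 of 119. On the distant lower side, the bin from 53928001 to 53929000 was unmethylated in every library that read it (Creole 1 1.37%, Spanish 2 and Spanish 3 0.0%). On the higher side, from 53967001 to 53968000, the same libraries read 83.3%, 100% and 77.8%.

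At CD5_BOVIN, Spanish 2 was again the library that differed in a second stretch on the same side of the gene. From 38000001 to 38001000 Spanish 2 read 40% over 5 cytosines, made up of 2 cytosines with 30 of 30 calls methylated and 3 with 0 of 30. Creole 1 read 0.725% and Creole 2 read 0.0% at the same 5 cytosines. Spanish 1 read 0.0% on the opposite strand of these CpGs, at 93 calls each. Creole libraries averaged 0.362% ± 0.512 and Spanish libraries 20% ± 28.3 (SD, n = 2 in both groups), so the difference was smaller than the Spanish spread. In the next bin (38001001 to 38002000) all 4 libraries read 0.0% to 1.23%.

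Further along the CD5_BOVIN locus levels were higher. At the lower end of the gene range (38005001 to 38006000) Creole 1 read 31.7% over 14 cytosines and Spanish 2 read 4.63% over 6. At the 6 cytosines they shared, both were low, 1.37% and 4.63%. The opposite strand of those CpGs was read at this depth in Creole 1 alone. There 9 of 20 calls were methylated at 38005331, 38005407 and 38005409, and 8 of 18 at 38005453. At 38005315 and 38005368 it was 0 of 20. Inside the gene range the mean level of a library lay between 59.0% in Creole 1 and 100% in Creole 2, Creole 3 and Spanish 1. These means cover 2 to 52 cytosines, each weighted equally. A low stretch below the gene and higher methylation in the gene body were seen in libraries of both groups. Low levels were also read inside the lower end of the gene range, at the 6 shared cytosines given above. Between these and the low stretch, the bin from 38004001 to 38005000 read 80.6% in Creole 1, the only library there (5 cytosines, 93 calls). In the RefSeq list CD5 neighbours CD6, which encodes a related surface receptor of T cells.

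At SERPINB1, which the RefSeq list places beside its clade B relative SERPINB9, the flanks were mostly methylated in both groups. Mean levels outside the listed region, with each cytosine weighted equally, ran from 54.1% in Spanish 1 to 90.2% in Creole 3. Low bins stood among them on both sides of the gene. From 50667001 to 50668000 Creole 1 read 10.7% and Spanish 1 read 20.7%. From 50669001 to 50670000 Creole 1 read 15.8% and Spanish 2 read 0.0%. On the higher side, from 50679001 to 50680000, Creole 1 read 33.3% and Spanish 2 read 0.0%. From 50661001 to 50662000, 4 libraries read the same 6 cytosines. Creole 1 read 52.2% and Creole 2 read 83.3%, and Spanish 2 read 48.6% and Spanish 3 read 83.3%. By bin level Creole 1 lay near Spanish 2 and Creole 2 near Spanish 3, and the Creole average of 67.7% ± 22.0 lay within the spread of the Spanish average of 66.0% ± 24.6 (SD, n = 2 in both groups). At 50661144, for instance, 10 of 23 calls in Creole 1 and 0 of 12 in Spanish 2 were methylated, against 49 of 49 in Creole 2 and 20 of 20 in Spanish 3. Creole 2 and Spanish 3 had the same state at all 6 cytosines. Creole 1 and Spanish 2 did not, with 0 of 23 and 7 of 12 calls methylated at 50661064 and 23 of 23 and 4 of 12 at 50661121. In the bin from 50670001 to 50671000, Creole libraries read 40% to 90.6% and Spanish 2 and Spanish 3 read 77.0% and 60%.

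Around PD2R_BOVIN 4 bins could be read, since few cytosines outside its island reached 10 calls. In the gene range next to the listed region, from 45206001 to 45207000, all 5 libraries with calls were low. Creole 1 read 2.50%, Creole 3 read 0.0%, Spanish 1 read 6.15%, Spanish 2 read 0.473% and Spanish 3 read 0.0%. The 6.15% of Spanish 1 came from 1 cytosine, 45206538, with 19 of 19 calls methylated on the plus strand and 0 of 14 on the minus strand. Outside the gene range Creole 1 alone was read, with a mean of 98.3% at 2 cytosines. This stretch of PD2R_BOVIN was thus mostly unmethylated in all 5 animals read there.

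**Figure D3:**
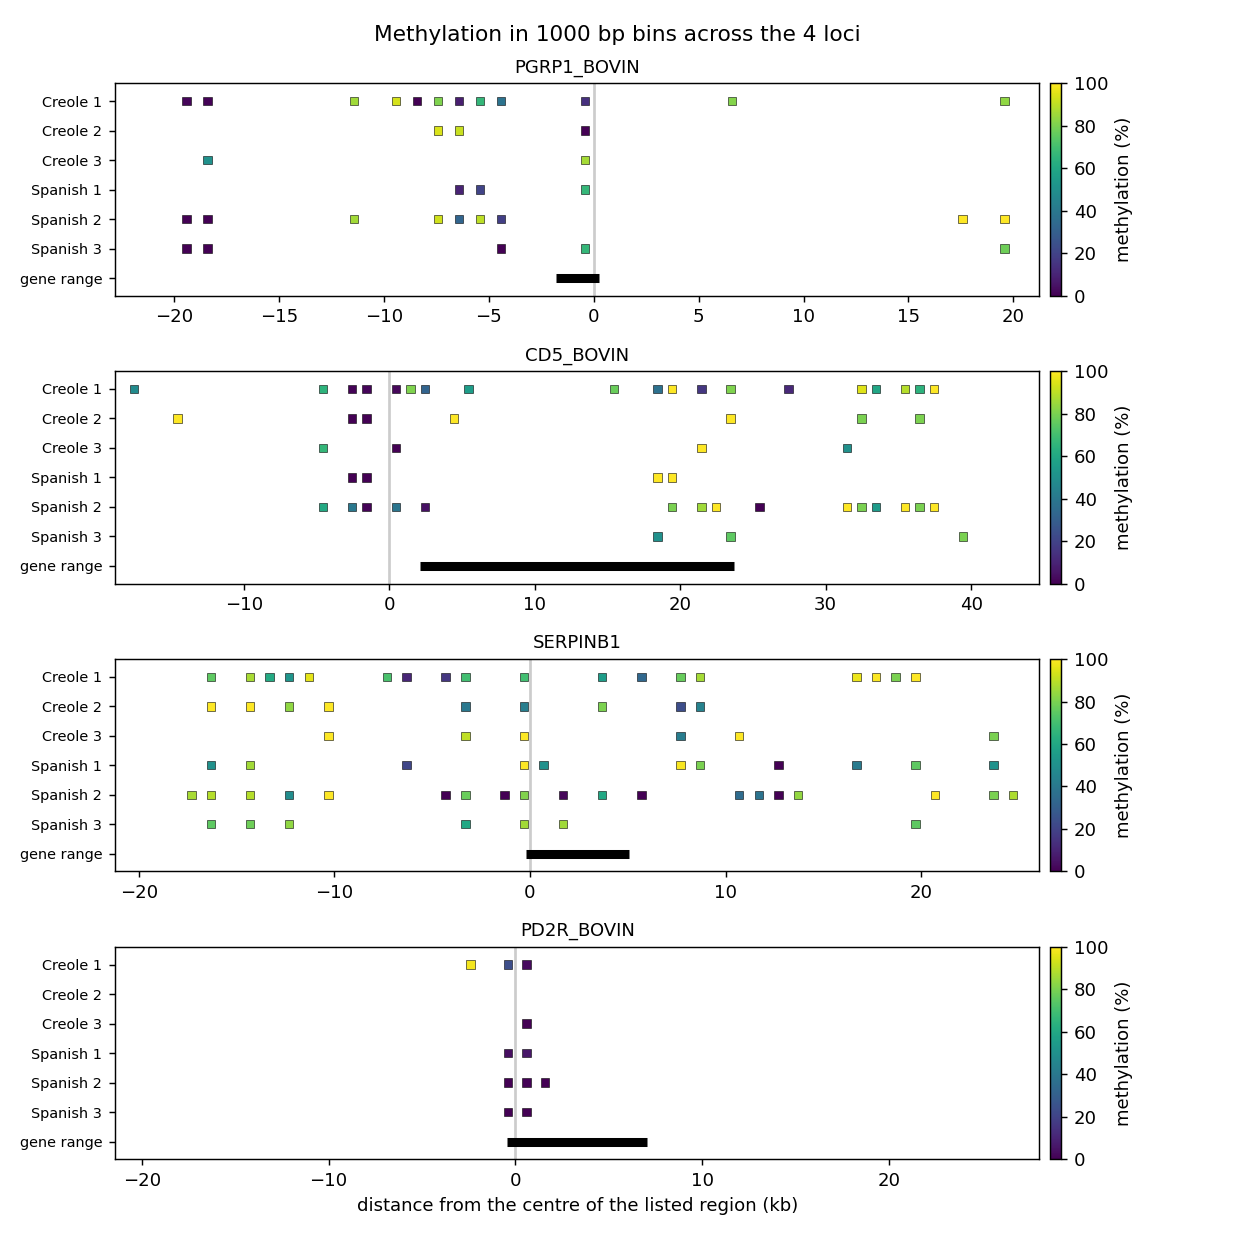
Methylation (colour, percent) of 1000 bp bins, 1 row per library, against distance in kb from the centre of the listed region, with the gene range as a black bar. Empty places had no cytosine with at least 10 calls. Inside the PD2R_BOVIN gene range the bins are low, the highest being 23.7% in Creole 1. CD5_BOVIN has some low bins below the gene, though the nearest one read 80.6% in Creole 1, and mostly higher ones inside it. SERPINB1 has high and low bins in both groups.

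The state of single cytosines was mostly all or none. Over the 4 loci, 1166 of 1388 cytosine measurements (84%) had every call methylated or every call unmethylated. In Creole 1 this held for 326 of 471 cytosines, against 68.6% on all chromosomes. It held for 141 of 150 in Creole 2 (88% on all chromosomes), 76 of 85 in Creole 3 (87.2%) and 162 of 172 in Spanish 1 (91%). In Spanish 2 the count was 341 of 388 (91.1%) and in Spanish 3 it was 120 of 122 (91.7%). The loci thus resembled the rest of each library in this respect. Within the listed regions, all calls were alike in 38 of 39 cytosine measurements at PD2R_BOVIN, 15 of 18 at PGRP1_BOVIN, 26 of 43 at SERPINB1 and 8 of 15 at CD5_BOVIN. The files give calls per cytosine and not reads, so the number of DNA molecules behind a level such as 37 of 37 is not known.

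Strands could be compared at 122 CpGs with at least 10 calls on both, and in 49 of them (40.2%) the strands were at least 50 points apart. Creole 1 had 32 such CpGs of 75, where 24.7% of its CpGs on all chromosomes were that far apart. Spanish 1 had 10 of 28 (24.3% on all chromosomes), Spanish 2 had 5 of 12 (21.7%) and Creole 2 had 2 of 6 (27.1%). Spanish 3 had 0 of 1 (22.9%), and Creole 3 had no such CpG in the loci (28.3% on all chromosomes). In Creole 1 the 32 were divided into 10 of 31 at PGRP1_BOVIN, 9 of 19 at CD5_BOVIN, 4 of 13 at SERPINB1 and 9 of 12 at PD2R_BOVIN. Neighbouring CpGs share reads and are not independent, so these shares are descriptions of the libraries. Strand disagreement was common in both groups and on all chromosomes, and its part in the listed differences other than at PD2R_BOVIN was not tested.

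**Figure D4:**
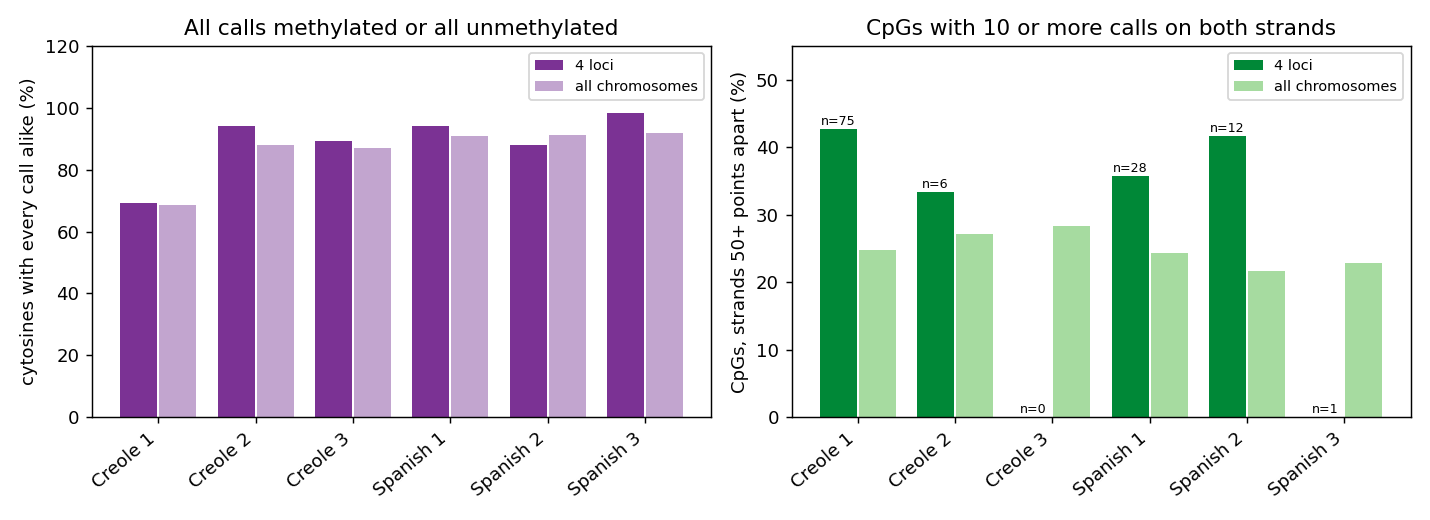
Left, percent of cytosines with at least 10 calls at which every call was alike; right, percent of CpGs read on both strands whose strands were at least 50 points apart. Dark bars are the 4 loci and light bars all chromosomes for each library, and n is the number of CpGs in the loci. The left bars of the loci lie near those of all chromosomes, and on the right the 4 libraries with 6 or more such CpGs lie above them.

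Libraries were also compared in pairs, over cytosines with at least 10 calls in both and without the listed regions. In the loci the mean absolute gap was 20.1 points between Creole 1 and Creole 2 (59 cytosines), and 24.5 points between Creole 1 and Creole 3 (19 cytosines). Spanish 2 and Spanish 3 were 28.1 points apart (47 cytosines), Spanish 1 and Spanish 2 10.4 points and Spanish 1 and Spanish 3 12.1 points. Between the groups the best-read pairs were Creole 1 with Spanish 2 (19.3 points, 186 cytosines), Creole 1 with Spanish 3 (19.1 points, 85 cytosines) and Creole 2 with Spanish 2 (23.5 points, 84 cytosines). The gaps of pairs from different groups thus overlapped those of pairs from the same group. On all chromosomes the gaps were 13.3 to 14.4 points within the Spanish group, 16.0 to 18.3 within the Creole group and 15.2 to 17.5 between groups. Pairs share libraries, and no test was made of them.

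**Figure D5:**
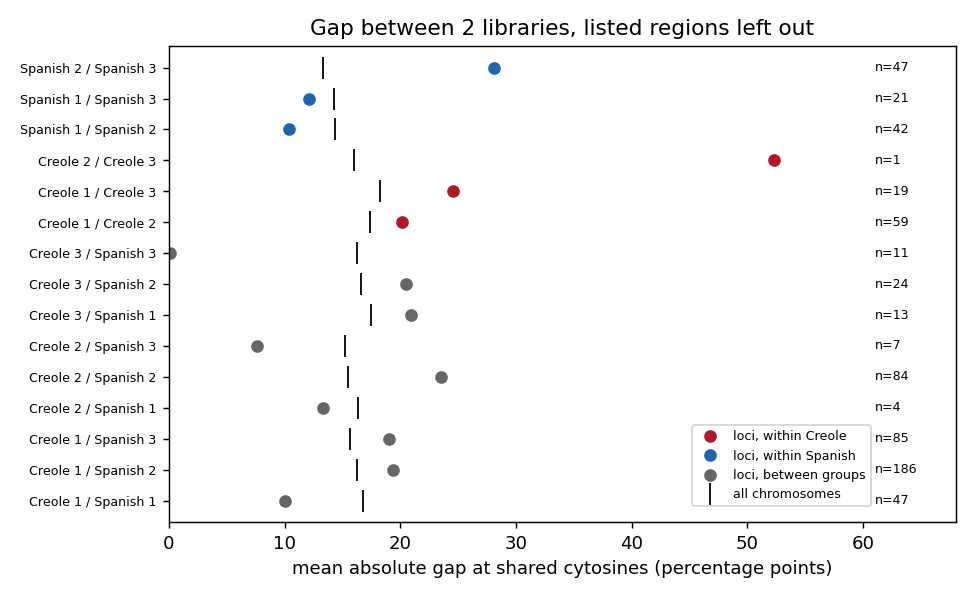
Mean absolute gap in methylation (percentage points, horizontal axis) between 2 libraries at shared cytosines outside the listed regions. Circles are the 4 loci, coloured by whether the pair lies within or between groups, bars are all chromosomes, and n is the number of shared cytosines in the loci. Pairs between groups overlap those within groups, and pairs with few cytosines, such as Creole 2 and Creole 3 with 1, carry little weight.

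Other genes of the same pathways were looked for by name in the authors' deposited table. Each member was the only one of its list: PGRP1_BOVIN among 23 genes of peptidoglycan recognition and innate sensing, CD5_BOVIN among 17 of T cell receptor signalling, SERPINB1 among 15 clade B serpins and neutrophil granule proteins, and PD2R_BOVIN among 16 of prostaglandin synthesis and receptors. The listed difference was higher in Spanish animals for the first 3 and higher in Creole for PD2R_BOVIN, where the table as a whole had 98 regions higher in Spanish and 236 higher in Creole animals. Of blood cell markers, CD5_BOVIN was the 1 of 12 T cell names in the table, and none of the names listed for B cells (0 of 6), NK and cytotoxic cells (0 of 7), neutrophils and monocytes (0 of 9) or red cells and platelets (0 of 7) was in it. Methylation at such marker genes was not analysed here, because no annotation of UMD3.1 was used, so the makeup of the blood samples was not checked. The table names 263 genes, which is 1.21% of the 21666 protein-coding genes in the RefSeq list, and at that share each list would hold under 1 gene, so counts of 0 or 1 say nothing about the lists, each of the first 4 of which was drawn up around its member. Matching was by name, so a gene listed under another name would be missed.

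A test of Creole against Spanish libraries was fitted to 2402 windows of 1000 bp that all 6 libraries shared. It called 0 windows (0%) at an adjusted p of 0.05 with edgeR's quasi-likelihood test, and 124 had a p below 0.05 before adjustment. With edgeR's likelihood ratio test 16 were called (0.666%), and limma called 0 (0%), with 136 below 0.05 before adjustment. The loci contributed 1 window, at SERPINB1 (50673001 to 50674000, 8 shared cytosines), and it was not among the 16. It holds the listed cytosines, so its outcome is a description. PGRP1_BOVIN, CD5_BOVIN and PD2R_BOVIN had no window that all 6 libraries shared and could not enter this test.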

How the data were processed

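Per the submitters' processing notes, Trim Galore, Bismark, methylKit and the build UMD3.1 were used; the sources used here do not give their roles, versions and settings or the caller behind the region table. The deposited coverage files hold, per library and covered CpG cytosine, the count of methylated and of unmethylated calls, not normalized, with strands apart, and a deposited percent column that equals methylated over all calls. Per the file headers, the authors' region table gives group means as a fraction (printed as percent), their signed difference and an area score, which was not used. Its distances to genes equal the region's end minus the lower gene coordinate in 275 of 275 rows, so they do not follow gene strand and were not used.

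Groups follow the breed labels, and replicate numbers follow accession order. Levels sum the calls of cytosines with at least 10 calls, but mean levels over a locus or a gene range weight each such cytosine equally. A position and the next one, both covered in any library, were read as the plus and minus strand of a CpG. Windows of 1000 bp with at least 3 cytosines of 10 calls in all 6 libraries were tested with edgeR 4.0.16 (quasi-likelihood, library effects, Benjamini-Hochberg, threshold 0.05), limma 3.58.1 (2 added to each count) and R 4.3.3. Only the quasi-likelihood fit was run on simulated calls. Their spread was set beforehand and not taken from these libraries, so that run does not show how the fit performs here. Python 3.11.15, numpy 2.4.6, pandas 2.3.3, scipy 1.17.1 and matplotlib 3.10.9 made the rest. Depth sets the Wilson intervals.

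The members, gene lists and tests were chosen with earlier results of these data known. Named were the 4 listed regions, the bin at the lower end of each gene, bins read in all 6 libraries and, per locus and direction, up to 3 bins of largest difference among those read in 2 libraries per group. The bin at the lower end of PGRP1_BOVIN had no cytosine with at least 10 calls in any library, so it has no value. The other bins were named after their values were seen. Names were matched to RefSeq (ARS-UCD2.0), where all 4 genes lay on the listed chromosome. No sequences are printed.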

Additional observations from a re-analysis of the deposited data

How the results depend on the processing

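Alternatives changed the read minimum (5 or 20 calls), bin size (100, 500 or 2000 bp), grid, weighting, coverage limit or test, or left out 1 library; 2 (a single strand, and no end positions) were added after the data were seen. Differences below are Creole minus Spanish in points. The PGRP1_BOVIN region stayed within -100 and -98.3 under all of them, with leave-one-out values from -100 to -98.3. At CD5_BOVIN the difference of -45.4 was -26.3 without the end positions and -46.4 to -44.4 with 1 library left out. At PD2R_BOVIN 37.0 became 11.1 with at least 20 calls, 57.9 with equal weight per cytosine and 99.98 on the plus strand (36.98 to 37.03 with 1 library left out). At SERPINB1 -8.48 was -16.3 with equal weight per cytosine, -28.7 without the end positions and -22.2 to 6.70 with 1 library left out. No value was possible for PGRP1_BOVIN without Spanish 1, for CD5_BOVIN without Spanish 2 or for PD2R_BOVIN without Creole 1. Leaving out a library with no level in a region returns the main value unchanged. The narrow leave-one-out ranges at these genes therefore do not measure spread between animals. Outside the listed regions, mean differences were taken over bins read in both groups. They were 9.90 at PGRP1_BOVIN (1.07 to 33.1 with 1 library left out), -5.64 at CD5_BOVIN (-8.93 to -2.80), 8.66 at SERPINB1 (2.47 to 11.3) and 3.22 at PD2R_BOVIN (-2.21 to 6.14). In that order, they average 9, 15, 16 and 2 bins. The mean SD within groups of a single bin was 26.3, 14.7, 16.5 and 3.97 points. A mean over several bins varies less than 1 bin, so this SD is not the spread of these differences between animals. With at least 20 calls the differences were -7.94 at SERPINB1 and 18.95 at PD2R_BOVIN. Equal weight per cytosine gave -1.85 at PD2R_BOVIN, and bins with 2 libraries per group -0.957. The difference outside the regions changed sign in 2 of 8 settings at CD5_BOVIN, 2 of 8 at SERPINB1 and 3 of 8 at PD2R_BOVIN, and without Creole 1 at PD2R_BOVIN. At PGRP1_BOVIN it changed sign in 0 of 8 settings (3.77 to 19.7) and with no library left out. The cause of these changes was not tested. The window test called 16 windows with the likelihood ratio test and 0 under the other alternatives, among them each library left out (0 to 0). Depth limits every locus, as at most 2 libraries of a group read 3 of the 4 listed regions. No paired analysis was possible because replicate numbers follow accession order and pair no animals.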
